A study of Mus musculus with 14 samples.

Results

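Choroid plexus epithelium genes were followed in RNA-seq libraries of mouse dorsal hippocampus, with Kl (klotho) among them. They are 40 genes chosen by name, with earlier results of these data known, because they mark or serve the epithelium of the choroid plexus. All 40 were found in both deposited tables, which list 26570 genes in the basal and 25933 genes in the learning experiment. All mice were males of 8 months. The basal experiment compared untrained mice, 3 WT and 2 THY-Tau22. Their sample titles name no injection, while a supplementary legend of the paper calls the groups WT VEH and TAU VEH. THY-Tau22 mice carry a mutated human tau driven in neurons by a Thy1 promoter, and were heterozygous on a C57BL6 background. In the learning experiment, 3 WT mice given saline stayed in their home cage (WT VEH_HC), while 2 WT mice given saline (WT VEH), 2 THY-Tau22 mice given empty carbon nanospheres called CSP (TAU VEH) and 2 THY-Tau22 mice given CSP-TTK21 (TAU MOL) learned the location of a platform in a Morris water maze. CSP-TTK21 is an activator of the acetyltransferases CBP and p300 bound to those nanospheres, injected into the abdomen. WT VEH and TAU VEH thus differ in genotype and also in what was injected. The study left out 3 further learning libraries after sequencing, by a criterion set afterwards, because they varied greatly. The paper says that these 3 mice were of the same litter. They were not analysed here, so the spread within groups is that of the libraries kept.

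The choroid plexus is a fringe of vessels covered by a cuboidal epithelium that hangs in the brain ventricles and secretes cerebrospinal fluid. Its cells pump sodium, bicarbonate and chloride, let water through aquaporin 1, and release proteins such as transthyretin, a carrier of thyroid hormone and retinol, into the fluid. Klotho is a membrane protein of this epithelium, of kidney tubules and of some neurons, where it acts as a coreceptor for the hormone FGF23 and can be shed into body fluids. The plexus of the lateral ventricle lies against the fimbria and the dorsal hippocampus, so a dissected hippocampus can carry pieces of it. In bulk tissue, fewer cells of a type and less RNA per cell cannot be told apart.

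Counts on genes ran from 24693713 to 52180305 per library, and levels are given as CPM, the count scaled to a common library size (edgeR's cpm function, with TMM factors). The labels were first checked by Thy1, whose sequence drives the transgene: it lay between 786 and 913 CPM in the WT libraries and between 1805 and 2352 CPM in the THY-Tau22 libraries of both experiments. The libraries keep no strand and 13 of the 40 genes overlap another annotated gene, so reads in the shared stretches cannot be told apart by strand for Ttr, Igf2, Bmp6, F5, Ace, Kcnj13, Clic6, Abca4, Rdh5, Col8a2, Mfrp, Prlr and Calml4. Some libraries stood apart in genes of neighbouring tissue. Summed over 12 meningeal fibroblast genes, THY-Tau22 replicate 1 held 166 CPM and WT VEH_HC replicate 2 held 160 CPM, against 49.6 to 103 CPM in the others. Summed over 5 medial habenula genes, WT replicate 3 held 26.6 CPM, against 3.70 to 10.2 CPM in the others. WT VEH_HC replicate 2 also had the lowest sums of 11 ependymal genes, 31.9 CPM, and of 6 oligodendrocyte genes, 3811 CPM, and the highest of 8 endothelial genes, 269 CPM. Counts without these libraries stand beside the results they change.

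Together the 40 genes summed to 3908 and 2764 CPM in WT VEH and to 470, 565 and 727 CPM in WT VEH_HC. The TAU VEH libraries held 738 and 820 CPM, and the TAU MOL libraries 1561 and 1460 CPM. In the basal table the WT libraries held 1008, 1042 and 880 CPM, THY-Tau22 replicate 1 held 1101 CPM and THY-Tau22 replicate 2 held 2364 CPM. The sum was thus highest with training in WT mice and lowest in the home cage, and a single basal THY-Tau22 library stood above the other 4. Ttr made up 54.2% and 48.9% of these counts in WT VEH, 49.0% in THY-Tau22 replicate 2, and 6.71%, 6.58% and 22.8% in WT VEH_HC. Without Ttr the sums were 1790 and 1412 CPM in WT VEH and 439, 527 and 561 CPM in WT VEH_HC. THY-Tau22 replicate 2 held 1206 CPM without Ttr, and the other basal libraries from 673 to 780 CPM. The group means followed the order WT VEH_HC, TAU VEH, TAU MOL, WT VEH from low to high for 31 of the 40 genes, and all 40 were highest in WT VEH. Both tables were scaled apart from each other, so levels are set across them as a description.

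**Figure D1:**
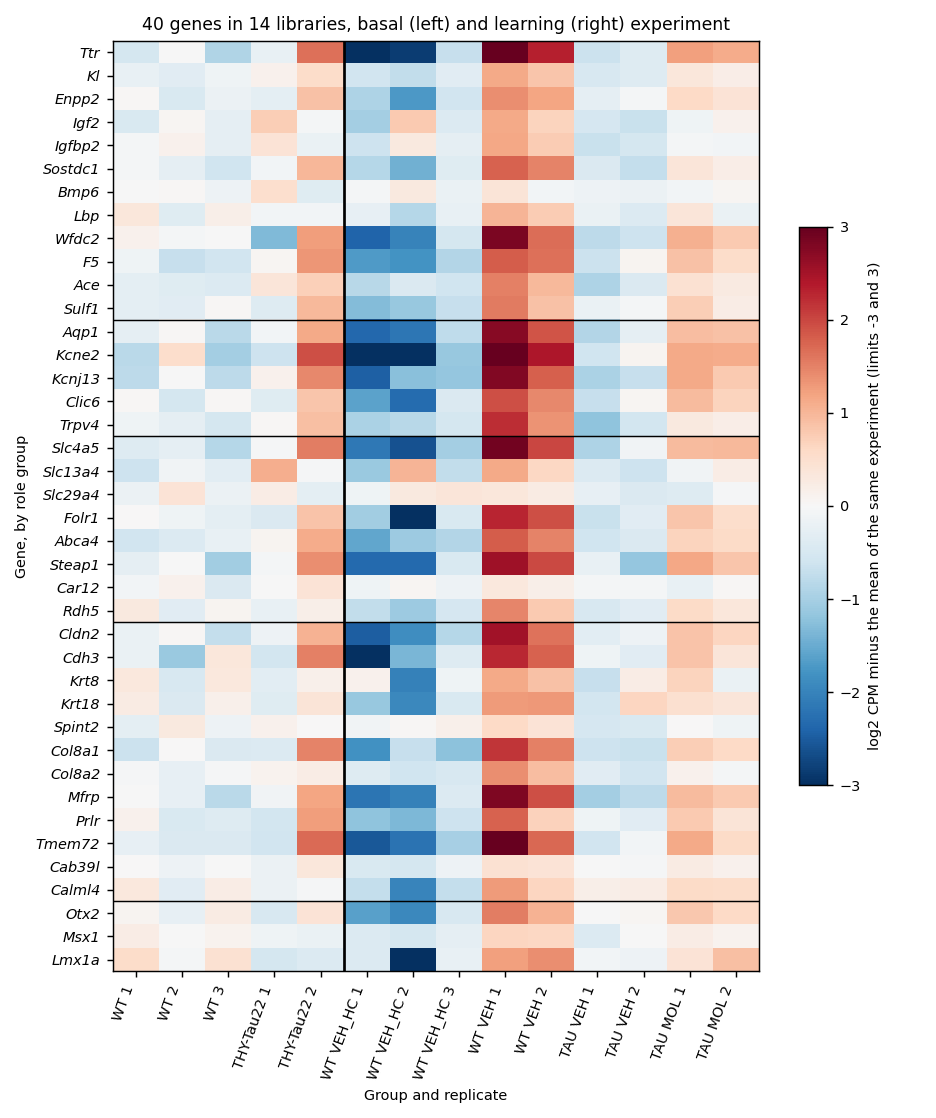
The 40 genes (rows, by role group) in 14 libraries (columns), coloured by log2 CPM minus the mean of the same experiment. The 2 WT VEH columns are red for nearly all rows and the 3 WT VEH_HC columns mostly blue, while Slc13a4 and Igf2 are also red in WT VEH_HC replicate 2.

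Per kilobase of merged exons, Ttr was the most abundant of the 40 genes in WT VEH, with a mean level of 1423 CPM per kilobase over 2 libraries. Enpp2, which encodes autotaxin, the enzyme that makes lysophosphatidic acid, followed with 187 CPM per kilobase. Kl stood sixth with 21.0 and 17.0 CPM per kilobase, which overlaps the 19.1 and 16.7 CPM per kilobase of Spint2, a membrane protease inhibitor just below it. Lmx1a, a transcription factor of the dorsal midline, was the lowest with 0.370 CPM per kilobase. With the longest transcript as the length, Ttr and Kl had the same values and Enpp2 had 191 CPM per kilobase.

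Training in the water maze was compared with the home cage in saline-treated WT mice. Choroid plexus epithelium genes were higher after training: 35 of 40 were called higher and none lower, where a call is an adjusted p under 0.05 (edgeR's quasi-likelihood test, Benjamini-Hochberg over all genes tested) with an absolute log2 fold change above 0.2. Of all 16820 genes tested, 5.35% were called higher. Their log2 fold changes had a median of 2.35, against -0.0028 over all genes tested. All 12 junction, cytoskeleton, matrix and membrane genes were above 0 and 11 of them were called, as were 10 of 12 secreted proteins and their regulators, 5 of 5 channels, 6 of 8 transporters and enzymes, and 3 of 3 transcription factors. Under scaling by library size only, all genes split into 1278 higher and 434 lower, where the TMM scaling gave 900 and 513, and 35 of the 40 were again called higher. Without WT VEH_HC replicate 2, 37 were called higher. Both WT VEH libraries lay above the 3 WT VEH_HC libraries for 36 of the 40 genes and for 23.0% of all genes, and the 4 others were Bmp6, Igf2, Slc13a4 and Slc29a4.

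Among secreted proteins, Ttr read 2118 and 1352 CPM in WT VEH and 31.5, 37.1 and 166 CPM in WT VEH_HC. The groups did not overlap, but the third home cage library held about as much Ttr as a TAU VEH library. The log2 difference was 4.47 ± 0.56 (SE), with an adjusted p of 0.0015. Enpp2 read 698 and 602 CPM against 141, 80.4 and 178 CPM, a log2 difference of 2.29 ± 0.23 (adjusted p = 0.00033). Igf2, a growth factor that both choroid plexus and meninges secrete, read 169 and 122 CPM in WT VEH. In WT VEH_HC it read 37.8, 132 and 57.2 CPM, and its log2 difference of 0.94 ± 0.37 did not pass (adjusted p = 0.12). The high home cage value was that of replicate 2, the library with the high meningeal sum, and without it the log2 difference was 1.61 ± 0.17 and passed (adjusted p = 6.8e-05).

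Kl (ENSMUSG00000058488, on chromosome 5 from 151755182 to 151796384 in mm9) read 107 and 87.0 CPM in WT VEH and 32.9, 29.5 and 38.5 CPM in WT VEH_HC. The groups were apart and the replicates of each were close, with means of 97.2 ± 14.4 CPM (SD, n = 2) and 33.7 ± 4.51 CPM (SD, n = 3). Its log2 difference of 1.53 ± 0.11 had an adjusted p of 3.9e-05 and was smaller than the median of the 40 genes.

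The 5 channels had the highest median of the role groups, with a median log2 fold change of 3.84. Aqp1, the water channel of the apical membrane, read 23.3 and 13.0 CPM in WT VEH against 0.687, 0.785 and 2.08 CPM in WT VEH_HC, a log2 difference of 3.92 ± 0.36 (adjusted p = 0.00016). Clic6, an intracellular chloride channel protein, read 51.7 and 36.8 CPM against 4.4, 2.72 and 9.99 CPM. Trpv4, a cation channel that opens on swelling, read 24.0 and 13.1 CPM against 2.67, 2.88 and 3.58 CPM. Kcne2, a potassium channel subunit, had the largest fold change of the 40 genes in this comparison, 4.84 ± 0.37 on the log2 scale (adjusted p = 5.6e-05), from 0.153, 0.161 and 0.585 CPM up to 10.6 and 6.91 CPM.

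Transporters and enzymes were less uniform. Slc29a4, a monoamine transporter also found in neurons, read 65.3 and 60.5 CPM in WT VEH and 46.9, 63.2 and 65.9 CPM in WT VEH_HC, so its groups overlapped (log2 difference 0.10 ± 0.14, adjusted p = 0.68). Car12, a carbonic anhydrase, read 49.0 and 44.7 CPM against 35.9, 41.0 and 35.6 CPM. Its log2 difference of 0.32 ± 0.09 just passed (adjusted p = 0.049), and the call was lost in an alternative fit. Slc13a4, a sulfate transporter of choroid plexus and meninges, read 24.1 and 16.7 CPM against 5.04, 22.2 and 6.57 CPM. As with Igf2, its high home cage value was that of replicate 2, and it was not called (0.85 ± 0.45, adjusted p = 0.24), but without that library it was (1.81 ± 0.17, adjusted p = 2.8e-05). Slc4a5, which carries sodium with bicarbonate, was far from this pattern, with a log2 difference of 4.28 ± 0.36 (adjusted p = 0.0001).

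Of the structural and membrane genes, Cab39l, a partner of the kinase LKB1, read 27.3 and 26.2 CPM in WT VEH and 14.4, 13.7 and 17.8 CPM in WT VEH_HC (0.81 ± 0.10, adjusted p = 0.0015). Spint2 read 28.9 and 25.3 CPM against 17.6, 19.5 and 21.4 CPM (0.47 ± 0.09, adjusted p = 0.017), a call lost in an alternative fit. Mfrp, a frizzled-related membrane protein, read 48.9 and 26.6 CPM against 1.53, 1.71 and 5.25 CPM (3.73 ± 0.38, adjusted p = 0.00039). In each of the 3 both WT VEH libraries lay above the home cage libraries, by the widest margin for Mfrp. Mfrp overlaps C1qtnf5 and Rnf26 and, as the libraries keep no strand, its reads are uncertain.

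Among the transcription factors, Otx2, which choroid plexus epithelium needs to form and to persist, read 9.33 and 6.60 CPM in WT VEH and 1.04, 0.846 and 2.30 CPM in WT VEH_HC (2.51 ± 0.30, adjusted p = 0.0012). Msx1 read 12.8 and 12.6 CPM against 6.20, 5.72 and 6.83 CPM (1.02 ± 0.12, adjusted p = 0.0012). Lmx1a stayed low, at 1.18 and 1.32 CPM against 0.381, 0.0604 and 0.434 CPM, and was called (2.13 ± 0.46, adjusted p = 0.023). The Lmx1a call was lost in an alternative fit. All 3 were thus higher after training, Otx2 the most.

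**Figure D2:**
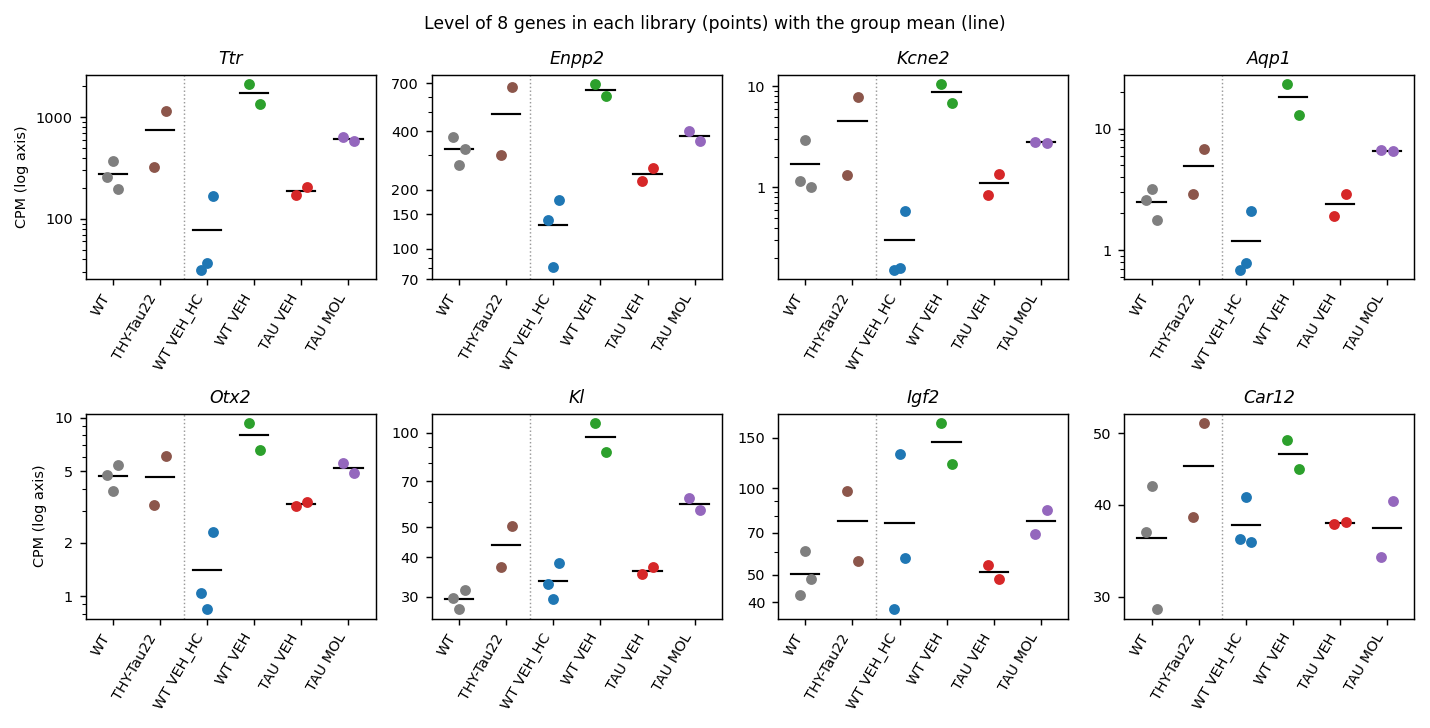
CPM of 8 genes on log axes in each library (points) with the group mean (line), basal groups left and learning groups right of the dotted line. Ttr, Enpp2, Kcne2, Aqp1 and Otx2 are lowest in WT VEH_HC, while the Kl points of WT VEH_HC and TAU VEH lie together between 29.5 and 38.5 CPM and Car12 hardly moves.

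Genotype was compared within trained mice, TAU VEH against WT VEH. Choroid plexus epithelium genes had lower levels in the THY-Tau22 mice: 33 of 40 were called lower and none higher, beside 10.8% of all genes tested called lower. All 40 had both TAU VEH libraries below both WT VEH libraries, as 29.4% of all genes did. The median log2 fold change was -1.60, against 0.00406 over all genes tested. By role group, 11 of 12 secreted proteins and their regulators, 5 of 5 channels, 6 of 8 transporters and enzymes, 9 of 12 structural and membrane genes and 2 of 3 transcription factors were called. This comparison shares its WT VEH libraries with the one before, so the values are given side by side and the agreement of signs is no second result.

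Ttr fell from 2118 and 1352 CPM to 171 and 204 CPM, a log2 difference of -3.21 ± 0.63 (adjusted p = 0.0056). Without TAU VEH replicate 1 its adjusted p was 0.075, and over its 15 alternatives the log2 difference ran from -3.50 to -2.85. Mfrp, with the doubt about its reads given above, had the largest decrease of the 40 genes, from 48.9 and 26.6 CPM to 3.47 and 4.04 CPM (-3.35 ± 0.44, adjusted p = 0.0012). Aqp1 fell to 1.92 and 2.91 CPM (-2.96 ± 0.40, adjusted p = 0.0012), and Trpv4 to 2.23 and 3.51 CPM (-2.74 ± 0.28, adjusted p = 0.00096). For these 4 genes TAU VEH kept from 9.95% to 15.4% of the WT VEH mean.

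Kl fell from 107 and 87.0 CPM to 35.3 and 37.3 CPM, a log2 difference of -1.42 ± 0.13 (adjusted p = 0.00059). Its call held in each of the 15 alternatives, with the log2 difference between -1.57 and -1.26. In 4 of them a group is left with 1 library, which is assumed to vary like the other groups. TAU VEH kept 37.4% of the WT VEH mean of Kl, against 10.8% for Ttr. Enpp2 fell to 223 and 258 CPM (-1.44 ± 0.26, adjusted p = 0.0035) and Clic6 to 8.33 and 14 CPM (-2.02 ± 0.41, adjusted p = 0.0068). Each of these calls was lost under an alternative. Igf2 fell to 53.8 and 48.3 CPM (-1.51 ± 0.42, adjusted p = 0.033). The decrease of Igf2 lost its call with DESeq2, with offsets for GC content and length, and without any single library of the 4.

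Other decreases were smaller. Slc29a4 read 43.5 and 37.8 CPM in TAU VEH (-0.63 ± 0.15, adjusted p = 0.019), Spint2 read 13.5 and 13.9 CPM (-0.98 ± 0.11, adjusted p = 0.00099) and Cab39l read 19.6 and 19.3 CPM (-0.46 ± 0.11, adjusted p = 0.019). Otx2 fell to 3.20 and 3.36 CPM (-1.29 ± 0.32, adjusted p = 0.02) and Msx1 to 6.18 and 8.11 CPM (-0.85 ± 0.14, adjusted p = 0.0024). The calls of Slc29a4, Cab39l and Otx2 were each lost under an alternative. Not called were Slc13a4 at 8.17 and 7.10 CPM, Car12 at 37.6 and 37.9 CPM (adjusted p = 0.059), Lmx1a at 0.474 and 0.453 CPM (adjusted p = 0.086), Bmp6, Calml4, Krt8 and Krt18. Scaling by library size alone moved the median of all genes by 0.15 and, over all genes, left 1020 of 3598 calls lower where the main scaling had 1815 of 2423. Of the 40 genes 32 were called lower under it. With offsets for GC content and length, 31 of the 40 and 402 of all genes were called lower.

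**Figure D3:**
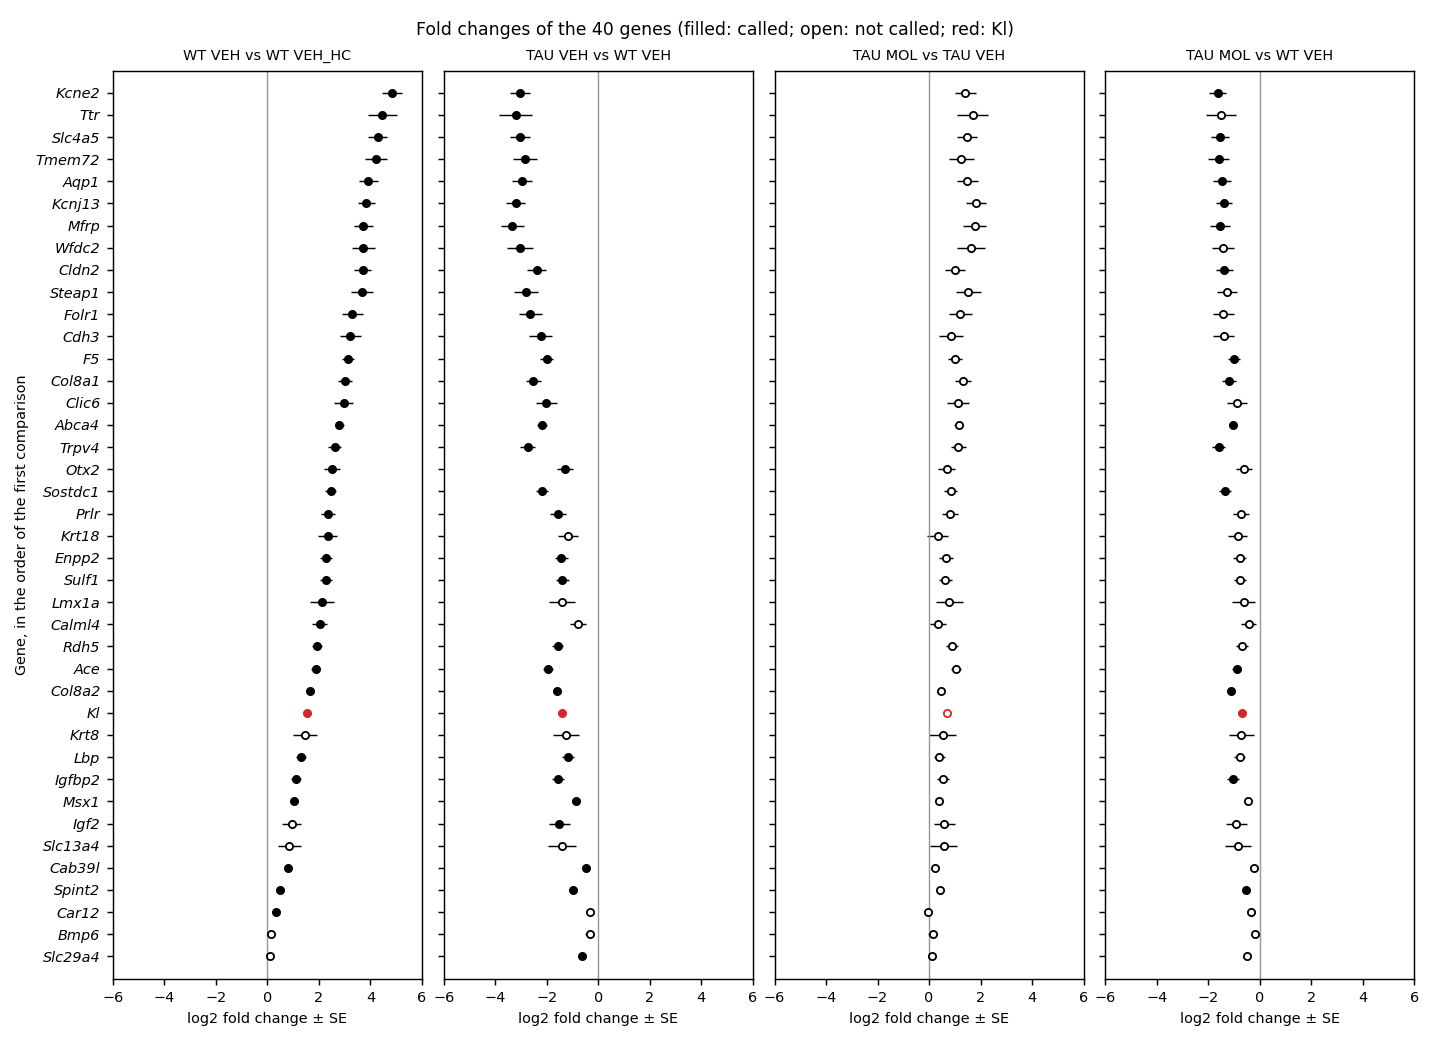
The log2 fold change ± SE of the 40 genes in 4 comparisons of the learning experiment, in the order of the first panel, with called genes filled and Kl in red. In these TMM-scaled fits all 40 points lie right of 0 in the first panel and left of 0 in the second and the fourth, and no point is filled in the third.

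The compound was tested within trained THY-Tau22 mice, TAU MOL against TAU VEH. None of the 40 genes was called by edgeR's quasi-likelihood test, and neither was any other gene: 0% of the 16820 tested were called, and 6.33% had an unadjusted p under 0.05. Of the 40 genes, 27 had an unadjusted p under 0.05, all higher in TAU MOL, and 39 had a log2 fold change above 0. The median was 0.83, against 0.00892 over all genes. In 35 of the 40 both TAU MOL libraries lay above both TAU VEH libraries, which 21.5% of all genes tested did, and the 5 that overlapped were Car12, Krt18, Krt8, Lbp and Slc29a4.

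Other settings gave other counts. DESeq2 called 5 of the 40 higher (Abca4, Ace, Col8a1, Kl and Trpv4, genes named after their values were seen), edgeR's likelihood ratio test 7, a fit on the 4 libraries of these groups alone 17, and the fit with no filter on low counts 29. Over all genes these settings called 56, 73, 60 and 233. Among the 40, all calls under these settings were of higher levels in TAU MOL, while over all genes they went both ways (33 higher and 23 lower with DESeq2). Leaving out any 1 of the 4 libraries gave 0 calls among the 40 by the quasi-likelihood test, and from 0 to 11 over all genes.

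Ttr read 171 and 204 CPM in TAU VEH and 630 and 582 CPM in TAU MOL. The libraries of each group were close and the groups 3.23 times apart in their means, with a log2 difference of 1.69 ± 0.59 (adjusted p = 0.64). Kl read 35.3 and 37.3 CPM against 62.1 and 56.6 CPM, a ratio of means of 1.63 and a log2 difference of 0.71 ± 0.13 (adjusted p = 0.21, and from 1.0e-11 to 0.9999 over 15 alternatives). Aqp1 went from 1.92 and 2.91 CPM to 6.63 and 6.48 CPM (1.49 ± 0.40, adjusted p = 0.41). Mfrp went from 3.47 and 4.04 CPM to 13.5 and 12.0 CPM (1.78 ± 0.45, adjusted p = 0.35). In each of these 4 genes the gap between groups was wider than the gap between replicates.

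Most other genes showed the same order of groups. Enpp2 read 401 and 356 CPM in TAU MOL against 223 and 258 CPM in TAU VEH, Clic6 25.9 and 21.4 CPM against 8.33 and 14 CPM, and Trpv4 6.34 and 5.89 CPM against 2.23 and 3.51 CPM. Igf2 read 69.5 and 84.2 CPM against 53.8 and 48.3 CPM, Slc13a4 10.1 and 12.6 CPM against 8.17 and 7.10 CPM, and Otx2 5.59 and 4.89 CPM against 3.20 and 3.36 CPM. Slc29a4 at 39.0 and 49.7 CPM and Car12 at 33.9 and 40.4 CPM overlapped with TAU VEH. Spint2 at 19.4 and 17.5 CPM, Cab39l at 23.4 and 21.7 CPM, Msx1 at 9.62 and 8.85 CPM and Lmx1a at 0.668 and 0.948 CPM lay above it.

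For 38 of the 40 genes both TAU MOL libraries lay below both WT VEH libraries, as for 26.9% of all genes, and the groups overlapped for Bmp6 and Prlr. Against WT VEH, 17 of the 40 genes were called lower in TAU MOL and none higher, beside 5.02% of all genes called lower, with a median log2 fold change of -0.91. The means of TAU MOL were between 32.1% and 88.2% of those of WT VEH, with a median of 53.1%. Ttr was at 34.9% (log2 difference -1.52 ± 0.59, adjusted p = 0.17) and Kl at 61.1% (-0.71 ± 0.12, adjusted p = 0.011). Called channels were Aqp1 (-1.47 ± 0.35, adjusted p = 0.034), Kcne2, Kcnj13 and Trpv4. The count of 17 rests on all 4 libraries: it was 0 without WT VEH replicate 1, 2 without WT VEH replicate 2, and 0 without either TAU MOL replicate. Calls over all genes went from 947 to 4, 4, 2 and 2 in the same fits, so the loss was not particular to the 40 genes. With offsets for GC content and length it was 3, with DESeq2 8 and in a fit on these groups alone 33, beside 25, 1331 and 1490 of all genes. Scaled by library size alone, 15 of the 40 were called lower, and all genes split into 757 higher and 326 lower in place of 103 and 844.

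Both THY-Tau22 groups were also set against WT VEH_HC, comparisons in which genotype, training and injection differ at once and cannot be told apart. TAU VEH had 11 of the 40 genes called higher and 2 called lower, while 16.2% of all genes tested were called higher and 18.2% lower. The 2 lower genes were Slc29a4 (-0.53 ± 0.14, adjusted p = 0.014) and Spint2 (-0.51 ± 0.10, adjusted p = 0.0025). Kl did not pass (0.11 ± 0.12, adjusted p = 0.51) and Ttr had 1.26 ± 0.53 (adjusted p = 0.087), while Enpp2 (0.85 ± 0.23, adjusted p = 0.013), Kcne2 (1.79 ± 0.47, adjusted p = 0.012) and Otx2 (1.22 ± 0.33, adjusted p = 0.013) were higher. The count of 13 became 11 without WT VEH_HC replicate 2, 23 without WT VEH_HC replicate 3, 7 without TAU VEH replicate 1 and 2 without TAU VEH replicate 2, and 8, all higher, with offsets for GC content and length. Over all genes 5782 were called, against 5440, 5985, 3273, 3766 and 1776 in these 5 fits. Scaled by library size alone, 15 were called higher and 1 lower, and the split of all genes went from 2724 higher and 3058 lower to 4988 and 1530.

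TAU MOL had 31 of the 40 genes called higher than in WT VEH_HC and 1, Slc29a4, called lower (-0.41 ± 0.14, adjusted p = 0.049), beside 14% of all genes called higher and 14.9% lower. Ttr was higher by 2.95 ± 0.54 (adjusted p = 0.0025) and Kl by 0.82 ± 0.11 (adjusted p = 0.00092). Without WT VEH_HC replicate 2, 34 genes were called higher and none lower, and the adjusted p of Slc29a4 was 0.075. Scaled by library size alone, 32 genes were called higher and none lower, and all genes split into 4430 higher and 1146 lower in place of 2353 and 2511. Igf2, Igfbp2, Slc13a4, Bmp6, Car12, Spint2, Lbp and Krt8 were not called, and in Igf2, Igfbp2, Slc13a4, Bmp6 and Car12 WT VEH_HC replicate 2 was the highest of the 3 home cage libraries.

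In the untrained mice of the basal experiment, none of the 40 genes was called between THY-Tau22 and WT by edgeR's quasi-likelihood test. Of the 16324 genes tested, 0.0245% were called in either direction. Of the 40, 19 had an unadjusted p under 0.05, 18 of them higher in THY-Tau22, against 4.92% of all genes. DESeq2 called 2 higher, Ace, the angiotensin-converting enzyme, and F5, coagulation factor V, and so did the likelihood ratio test, beside 40 and 51 of all genes. The median log2 fold change was 0.60. It was 0.11 without THY-Tau22 replicate 2 and 1.05 without THY-Tau22 replicate 1, where 1 gene, Ace, was called.

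The second THY-Tau22 library carried most of the difference. Ttr read 259, 369 and 198 CPM in WT, 321 CPM in THY-Tau22 replicate 1 and 1158 CPM in replicate 2. Aqp1 read 2.57, 3.16 and 1.76 CPM in WT, then 2.92 and 6.84 CPM, and Enpp2 375, 268 and 323 CPM, then 300 and 671 CPM. The first THY-Tau22 library lay within or near the WT range and the second above it. Over the 40 genes, the ratio of replicate 2 to replicate 1 ran from 0.458 for Slc13a4 to 5.89 for Wfdc2, with 33 genes above 1 and 20 above 2. Genes with the opposite order included Igf2 (97.9 and 55.7 CPM, WT 42.6, 60.3 and 48.2 CPM), Slc13a4 (22.7 and 10.4 CPM, WT 6.94, 9.88 and 8.58 CPM), Bmp6 and Igfbp2, which were high in replicate 1, the library with the meningeal sum of 166 CPM.

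Kl was among 9 of the 40 genes for which both THY-Tau22 libraries lay above all 3 WT libraries, at 37.4 and 50.4 CPM against 29.7, 27.4 and 31.5 CPM. The log2 difference was 0.57 ± 0.14, with an adjusted p of 0.66. Of all genes tested, 9.01% had both THY-Tau22 libraries above the WT libraries. Ace read 24.7 and 31.5 CPM against 15.7, 15.0 and 14.6 CPM (0.90 ± 0.13, adjusted p = 0.1). The transcription factors had log2 differences below 0, with Otx2 at 3.26 and 6.09 CPM against 4.81, 3.88 and 5.44 CPM, Msx1 at 7.54 and 7.17 CPM against 9.59, 8.19 and 8.77 CPM, and Lmx1a at 0.558 and 0.606 CPM against 1.19, 0.776 and 1.10 CPM.

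Values of the other genes shown before were as follows. Clic6 read 14.6, 9.83 and 14.6 CPM in WT and 11.2 and 25.2 CPM in THY-Tau22, Trpv4 2.86, 2.61 and 2.17 CPM and 3.19 and 5.86 CPM, and Mfrp 4.57, 3.85 and 2.61 CPM and 4.28 and 10.5 CPM. Slc29a4 read 37.7, 57.2 and 38.1 CPM in WT and 50.0 and 35.1 CPM in THY-Tau22, and Car12 36.7, 42.4 and 28.8 CPM and 38.5 and 51.6 CPM. Spint2 read 14.1, 21.1 and 15.4 CPM in WT and 18.7 and 17.4 CPM in THY-Tau22, and Cab39l 28.8, 25.5 and 28.2 CPM and 25.0 and 36.0 CPM. Apart from Trpv4, the groups of these genes overlapped.

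The difference between the genotype effects of the 2 experiments was tested in 1 fit of WT, THY-Tau22, WT VEH and TAU VEH, as the effect in trained mice minus that in basal mice. Of the 40 genes 19 were called, all with the lower genotype effect in trained mice. Of the 16660 genes tested, 0.192% were called lower. Over all genes 32 were called. With DESeq2 27 of the 40 and 114 of all genes were called, and with the likelihood ratio test 30 and 138. The difference was -2.00 ± 0.20 on the log2 scale for Kl (adjusted p = 0.0023), -4.64 ± 0.62 for Ttr (adjusted p = 0.0099), -3.91 ± 0.54 for Aqp1 (adjusted p = 0.0099), -4.35 ± 0.52 for Mfrp (adjusted p = 0.0062) and -2.84 ± 0.27 for Ace (adjusted p = 0.0023). None of the 3 transcription factors was called. Training, handling and experiment, and perhaps injection, differ together between the 2 tables and cannot be told apart.

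With library size alone the count was 15. Without THY-Tau22 replicate 2 the count was 22, in a fit that called 637 of 17143 genes in place of 32 of 16660, so the background moved far more than the count. The count was 27 without THY-Tau22 replicate 1, beside 45 of all genes, and 13 without WT replicate 3, beside 17. The count was 6 without WT VEH replicate 1, 4 without TAU VEH replicate 1 and 8 without TAU VEH replicate 2, in fits that called 7, 10 and 9 of all genes. The 4 that remained without TAU VEH replicate 1 were Abca4, Ace, Col8a2 and Kl. The Kl difference was called in each of its 19 alternatives, with an adjusted p of at most 0.032 and a log2 value between -2.17 and -1.77. That of Ttr lost its call without WT VEH replicate 1 (adjusted p = 0.057) and without TAU VEH replicates 1 (adjusted p = 0.12) or 2 (adjusted p = 0.078), and with the replicate number and offsets for GC content and length in the model (adjusted p = 0.11).

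Kl had another range than Ttr and the channels. Its highest learning library held 3.63 times the lowest, against 67.2 times for Ttr, 69.5 times for Kcne2 and 34.0 times for Aqp1, and a median of 9.48 times over the 40 genes. The genes with the narrowest ranges were Car12 at 1.44 times, Bmp6 at 1.5 times and Slc29a4 at 1.74 times. Per 100 Ttr counts there were 5.07 and 6.43 Kl counts in WT VEH, 9.85 and 9.72 in TAU MOL, 20.7 and 18.3 in TAU VEH, and 104, 79.6 and 23.2 in WT VEH_HC. The Kl level was thus nearly flat over the libraries with little Ttr and rose over those with more.

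In CPM, WT VEH exceeded WT VEH_HC by 63.5 for Kl and 1657 for Ttr, or 3.83 CPM of Kl for each 100 CPM of Ttr. TAU MOL exceeded TAU VEH by 23.0 and 419 CPM, or 5.50 per 100, and WT VEH exceeded TAU VEH by 60.9 and 1548 CPM, or 3.93 per 100. The basal THY-Tau22 replicate 2 exceeded the mean of the other 4 basal libraries by 18.9 CPM of Kl and 871 CPM of Ttr, or 2.17 per 100. Set against the summed counts of the other 38 genes, without Ttr, the ratio of Kl was between 5.93% and 8.12% in the learning libraries. It was between 4.13% and 5.04% in the basal ones. That ratio differed less between groups than the ratio of Kl to Ttr.

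**Figure D4:**
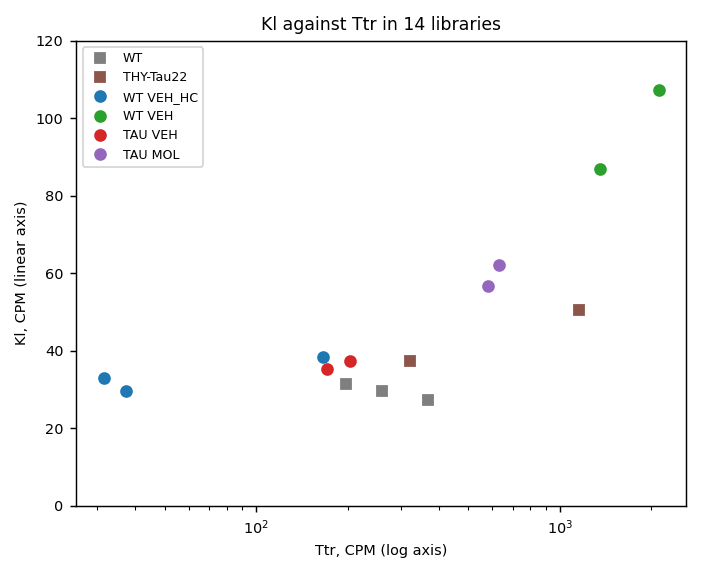
Kl CPM (linear axis) against Ttr CPM (log axis) in 14 libraries, squares for the basal and circles for the learning experiment. Up to 369 CPM of Ttr the Kl values lie between 27.4 and 38.5 CPM, and beyond that they reach 107 CPM in WT VEH replicate 1.

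Genes with the profile most like that of Kl or Ttr were sought by the root mean square difference of log2 CPM, each gene centred on its mean, over the genes tested. Over the 9 learning libraries, 9 of the 10 genes nearest to Ttr were among the 40, led by Kcne2 at 0.22, Slc4a5 at 0.41, Aqp1 at 0.42 and Tmem72 at 0.46. For Kl, 3 of the nearest 10 were among the 40, Col8a2 at 0.19, Rdh5 at 0.20 and Lbp at 0.21, and the nearest was Col9a3, a collagen gene, at 0.12, followed by Slc28a3 at 0.17, Epn3 at 0.18 and Slc2a12 at 0.19. Over the 5 basal libraries, 6 of the 10 nearest to Ttr were among the 40, with Slc4a5 at 0.16 the nearest, and none of those nearest to Kl, which was led by Txlnb at 0.039. With 5 libraries such a measure picks small differences in any gene that moves little.

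Other genes with a known place in choroid plexus epithelium were listed, with earlier results of these data known. Of the 15, 14 were tested in the learning experiment. After training 9 were called higher and none lower, beside 5.35% of all genes called higher. In TAU VEH 6 were called lower against WT VEH and none higher, beside 10.8% of all genes called lower. There 8 were not called, and 1 was higher at an unadjusted p under 0.05. The list medians were 0.57 after training and -0.55 in TAU VEH, against 2.35 and -1.60 for the 40 genes. 1500015O10Rik, a gene of a secreted peptide, was higher after training by 3.40 on the log2 scale (adjusted p = 5.4e-05) and lower in TAU VEH by -2.32 (adjusted p = 0.001). Slc16a8, a lactate transporter, showed 2.47 (adjusted p = 0.004) and -2.61 (adjusted p = 0.0024), and Slc4a2, an anion exchanger, 0.85 (adjusted p = 0.0064) and -1.18 (adjusted p = 0.0011). Slc23a2 and Slc4a10, which neurons also express and which had mean levels of 156 and 104 CPM in WT VEH, were called in neither comparison. None was called between TAU MOL and TAU VEH.

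Partners of klotho were read next. Of the 16 genes listed, which hold the FGF receptors, beta-klotho (Klb), the sheddases Adam10, Adam17 and Bace1, and enzymes and receptors of vitamin D, 10 were tested in the learning experiment and none was called after training, in TAU VEH against WT VEH or in TAU MOL against TAU VEH. Fgfr1 had mean levels of 196 CPM in WT VEH and 215 CPM in WT VEH_HC. At an unadjusted p under 0.05 there were 3, 2 and 0 of the 10 in these comparisons, beside 4683, 4566 and 1064 of all 16820 genes. Against WT VEH_HC, 4 of the 10 were called in TAU VEH and 3 in TAU MOL, beside 5782 and 4864 of all genes, which are like shares. Between 1 and 5 of the listed genes had no count in a given library.

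Genes that carry or read thyroid hormone and retinol were listed beside Ttr. Slco1c1 (0.89, adjusted p = 0.0027) and Dio2 (0.59, adjusted p = 0.0075) were called higher after training and none lower, while 2 others were lower at an unadjusted p under 0.05. Those called lower in TAU VEH against WT VEH included Stra6 (-0.68, adjusted p = 0.011), Slco1c1 (-0.48, adjusted p = 0.035) and Thra (-0.31, adjusted p = 0.0079). None was called between TAU MOL and TAU VEH.

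Markers of neighbouring cells were read in the same libraries. The 11 ependymal genes summed to 63.6 and 64.6 CPM in WT VEH, 75.0, 31.9 and 63.3 CPM in WT VEH_HC, 69.0 and 56.1 CPM in TAU VEH and 74.8 and 49.6 CPM in TAU MOL, so these ranges overlapped. Mia1 was called higher after training (0.70, adjusted p = 0.048) and lower in TAU VEH (-0.72, adjusted p = 0.047), and the other 10 were not called in these comparisons. In the basal table they summed to 108, 51.3 and 105 CPM in WT and 60.5 and 55.2 CPM in THY-Tau22, and all 11 had a log2 difference below 0. The 12 meningeal fibroblast genes summed to 58.2 and 66.0 CPM in WT VEH, 49.6, 160 and 59.5 CPM in WT VEH_HC, 64.5 and 59.6 CPM in TAU VEH and 49.7 and 79.2 CPM in TAU MOL, and none was called in any of the 8 comparisons. Neither sum separated WT VEH from WT VEH_HC or from TAU VEH, and none of the genes summed was at 0 in any library. Other lists did separate groups. The 2 genes of fenestrated endothelium, the vessel type of the choroid plexus, summed to 12.5 and 12.3 CPM in WT VEH, 15.9, 14.9 and 15.6 CPM in WT VEH_HC, 9.95 and 9.96 CPM in TAU VEH and 11.1 and 11.1 CPM in TAU MOL, so WT VEH lay below the home cage and above TAU VEH. Plvap, the tested one of the pair, was called lower after training (-0.32, adjusted p = 0.035), against the direction of the choroid plexus genes, and lower in TAU VEH (-0.31, adjusted p = 0.041). The 8 endothelial genes summed to 193 and 178 CPM in WT VEH and 142 and 156 CPM in TAU VEH, with none called. The 5 blood genes summed to 32.4 and 36.9 CPM in WT VEH and 24.4, 28.5 and 22.5 CPM in WT VEH_HC, with 2 called higher after training. The 6 astrocyte genes summed to 3342 and 2959 CPM in WT VEH and 4039 and 4007 CPM in TAU VEH. Of these 3 were called higher in TAU VEH, beside 608 of all 16820 genes. In the basal table the astrocyte sums were 3583, 3652 and 3705 CPM in WT and 4021 and 5178 CPM in THY-Tau22. Those of 6 oligodendrocyte genes were 11677, 7053 and 9928 CPM in WT and 6863 and 6549 CPM in THY-Tau22, with 5 lower at an unadjusted p under 0.05 and none called. The part of these lists in the results was not tested. The part of a different share of choroid plexus in the dissected tissue was not tested.

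Neuronal lists also differed between groups. The 5 genes of CA1 pyramidal cells, the cells in which tau pathology of this model is described, summed to 1069 and 994 CPM in WT VEH, 584 and 619 CPM in TAU VEH, 851 and 853 CPM in TAU MOL and 1081, 805 and 969 CPM in WT VEH_HC. Of these, 4 were called lower in TAU VEH against WT VEH, none was called after training, and none in TAU MOL against TAU VEH, where 4 had an unadjusted p under 0.05. Unlike the choroid plexus genes, the CA1 sums of WT VEH and WT VEH_HC overlapped. In the basal table they were 524, 540 and 657 CPM in WT and 713 and 497 CPM in THY-Tau22. The 5 tested genes of CA3 pyramidal cells went the other way, with 3 called higher in TAU VEH against WT VEH. Of all 16820 genes, 608 were called higher there. In TAU MOL against TAU VEH all 5 were lower at an unadjusted p under 0.05 and none was called. Their sums were 543 and 652 CPM in WT VEH, 685, 709 and 653 CPM in WT VEH_HC, 648 and 627 CPM in TAU VEH and 523 and 508 CPM in TAU MOL, and after training 1 was called higher and 1 lower. The 6 dentate granule cell genes summed to 436 and 464 CPM in WT VEH, below the 471, 640 and 600 CPM of WT VEH_HC, with 1 called lower. The part of these neuronal lists in the results above was not tested.

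**Figure D5:**
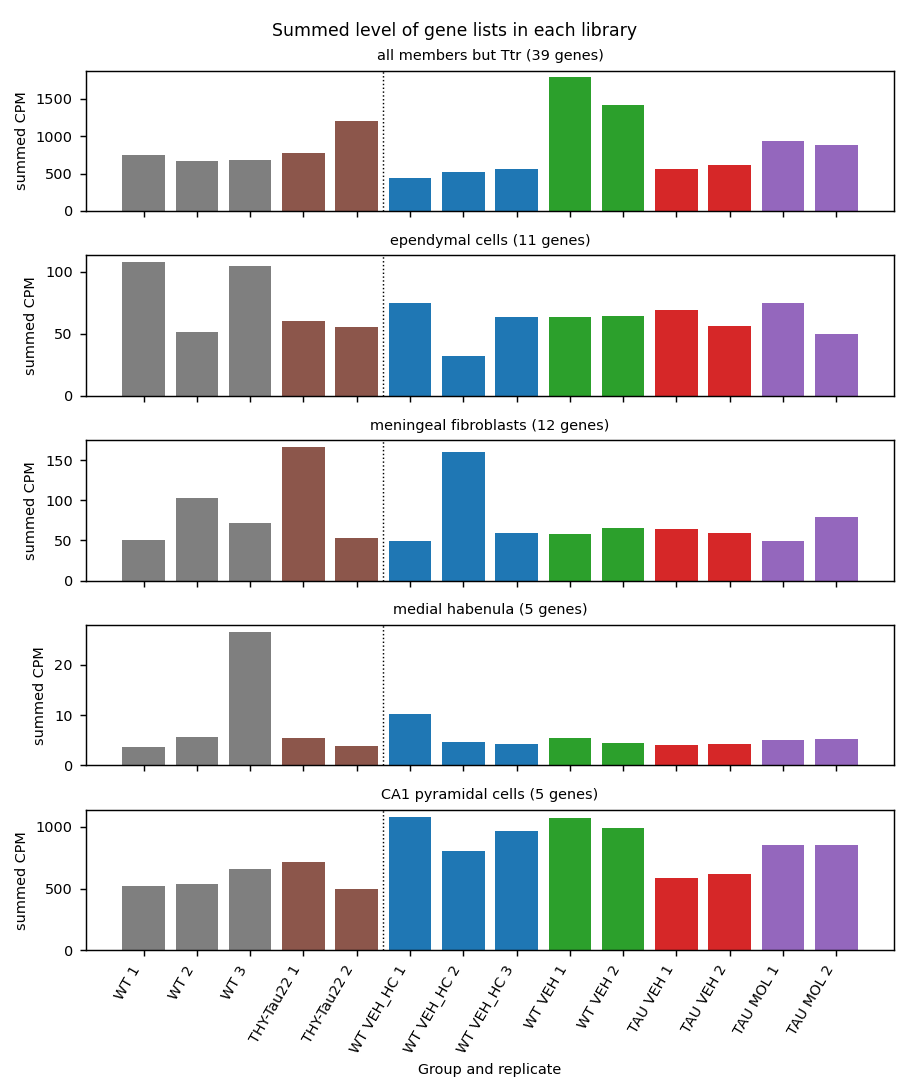
Summed CPM of 5 gene lists in each library, basal libraries left and learning libraries right of the dotted line, with bars from 0 and colours by group. The 39 choroid plexus genes without Ttr are highest in the 2 WT VEH libraries, while the meningeal bars stand out in THY-Tau22 replicate 1 and WT VEH_HC replicate 2.

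The 40 genes lie on 18 chromosomes, and the GC content of their exons has a median of 50.4%, against 50.0% over the genes tested. Their promoters were read from the mm9 genome, from 250 bases before to 50 after the gene start of the GENCODE annotation, for sequences that homeobox factors of this epithelium bind. TAATCC, the core of OTX sites, was found on either strand in 4 of 40 promoters (10.0%) and in 6.55% of 16886 promoters of genes tested. TAATTA, a core shared by LMX and MSX type factors, was found in 3 of 40 (7.5%) and in 3.20%, and TGACGTCA, the cAMP response element, in none of the 40 and in 2.82%. The first 2 motifs share 4 letters and can overlap. These are counts of letters in a window and not binding sites.

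The upstream sequences below show the genes with a match whose 250 bases overlap no annotated gene, and Kl, which had none of the 3 motifs. Each ends at the base before the gene start and runs 5′ to 3′ on the strand of the gene, with motif letters in capitals. Folr1, the folate receptor, lies on the minus strand and its window is chr7:109019303-109019552. That of Otx2, also on the minus strand, is chr14:49287320-49287569. Abca4, a retinoid transporter with both motifs, lies on the plus strand (chr3:121747111-121747360), as do Wfdc2, a secreted protease inhibitor with 2 copies of TAATCC (chr2:164387663-164387912), and Kl (chr5:151754932-151755181).
Folr1: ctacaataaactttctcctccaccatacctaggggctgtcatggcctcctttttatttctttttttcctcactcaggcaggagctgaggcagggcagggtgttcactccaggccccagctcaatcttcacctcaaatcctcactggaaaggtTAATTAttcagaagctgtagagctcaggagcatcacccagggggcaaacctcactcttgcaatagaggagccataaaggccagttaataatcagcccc
Otx2: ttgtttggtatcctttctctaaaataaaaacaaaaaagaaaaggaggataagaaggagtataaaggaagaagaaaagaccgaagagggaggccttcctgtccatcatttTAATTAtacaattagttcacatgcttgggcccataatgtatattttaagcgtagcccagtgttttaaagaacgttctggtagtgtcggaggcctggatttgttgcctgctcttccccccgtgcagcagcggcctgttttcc
Abca4: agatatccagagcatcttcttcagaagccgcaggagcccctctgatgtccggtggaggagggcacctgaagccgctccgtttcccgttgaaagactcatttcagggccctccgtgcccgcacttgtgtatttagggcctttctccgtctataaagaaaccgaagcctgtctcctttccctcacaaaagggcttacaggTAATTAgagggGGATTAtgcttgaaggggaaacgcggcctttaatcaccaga
Wfdc2: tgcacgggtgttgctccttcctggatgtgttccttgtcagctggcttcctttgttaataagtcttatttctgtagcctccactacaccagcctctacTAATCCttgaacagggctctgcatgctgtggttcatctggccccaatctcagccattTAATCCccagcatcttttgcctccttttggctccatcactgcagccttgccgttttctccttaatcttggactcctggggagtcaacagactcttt
Kl: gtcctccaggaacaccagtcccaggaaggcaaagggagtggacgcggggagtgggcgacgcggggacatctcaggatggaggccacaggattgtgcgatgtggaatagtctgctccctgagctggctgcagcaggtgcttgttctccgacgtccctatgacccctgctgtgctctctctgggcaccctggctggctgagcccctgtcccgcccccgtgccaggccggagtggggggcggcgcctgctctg

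Folr1 read 17 and 13.3 CPM in WT VEH, 1.70, 0.403 and 2.56 CPM in WT VEH_HC, 2.21 and 2.76 CPM in TAU VEH and 6.25 and 5.06 CPM in TAU MOL. Abca4 read 19.4 and 15.7 CPM, 1.88, 2.60 and 3.03 CPM, 3.65 and 4.11 CPM, and 8.77 and 8.25 CPM in the same order of groups. Wfdc2 read 2.85 and 1.30 CPM, 0.0763, 0.101 and 0.282 CPM, 0.237 and 0.264 CPM, and 0.846 and 0.698 CPM. These genes and Otx2, like Kl, had both WT VEH libraries above the 3 WT VEH_HC libraries.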

How the data were processed

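Dorsal hippocampus RNA (poly-A, unstranded libraries, single reads) was sequenced in 14 libraries. Per the study's methods, the authors aligned reads to mm9 with TopHat 2.0.10 and Bowtie 2.1.0 and made the deposited counts per gene with HTSeq 0.5.4p3 from uniquely aligned reads on Ensembl genes. The deposited normalized columns hold a signal made by the authors, each count divided by 1 factor per library, and were not used in tests; columns with the authors' fold changes and p-values were not used either. All counted columns were assigned to a sample from their names.

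Counts were tested with edgeR 4.0.16 in R 4.3.3 (filterByExpr, TMM, quasi-likelihood F test, Benjamini-Hochberg over all genes tested), in 1 fit of the 9 learning libraries, 1 of the 5 basal libraries and, for the difference between genotype effects, 1 of the 9 libraries of WT, THY-Tau22, WT VEH and TAU VEH. Calls needed both an adjusted p below 0.05 and a log2 change beyond 0.2 in size. All 40 genes passed the filter in each fit. The scripts were tested on simulated data. Alternatives were DESeq2 1.42.0, other scalings and filters, a likelihood ratio test, offsets for GC content and length (loess span 0.3), the replicate number as a block, fewer groups in the fit and leaving out each library.

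The members and lists were chosen with earlier results of these data known. Values in each library were given for Ttr, Kl and the 3 genes of each role group with the highest mean CPM in the learning experiment. Kcne2, Ace, Folr1, Abca4 and Wfdc2 were added after their values were seen. Of other lists, the 2 most abundant genes and called genes could be named, and a result of the list on thyroid hormone and retinol is not reported here. Libraries of a group differed by more than counting noise and none was a duplicate. The labels do not say how replicates relate beyond separate samples, so p-values measure the spread between these samples. Gene positions and promoters came from the mm9 genome with GENCODE vM1.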

Additional observations from a re-analysis of the deposited data

Results flagged for a closer look

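The genotype effect in trained mice minus that in basal mice was tested directly, as a term of the edgeR quasi-likelihood fit. Of the 40 genes 19 passed (adjusted p under the threshold over all genes tested), each with the lower genotype effect in trained mice. On the log2 scale the difference was -4.64 for Ttr, -2.00 for Kl, -2.12 for Igf2, -1.77 for Igfbp2, -3.03 for Sostdc1, -3.27 for F5 and -2.84 for Ace, which are secreted proteins and their regulators. Channels had -3.91 (Aqp1), -4.61 (Kcnj13) and -3.56 (Trpv4). Transporters and enzymes had -4.45 (Slc4a5), -2.39 (Slc13a4), -3.11 (Folr1), -3.28 (Abca4) and -4.02 (Steap1). Structural and membrane genes had -3.22 (Cldn2), -3.68 (Col8a1), -1.89 (Col8a2) and -4.35 (Mfrp). With the replicate number as a block 6 of the 40 passed, and 1 with GC and length offsets as well, beside 8 and 2 of all genes. The basal THY-Tau22 replicate 2 stood above the other basal libraries in most of these genes. Without it 22 of the 40 passed, in a fit that called 637 of all 17143 genes in place of 32 of 16660.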

How the results depend on the processing

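With 2 or 3 libraries a group, counts of called genes moved with the settings while no gene's direction reversed in a called result. Counts of the 40 genes called were, in the basal comparison, 2 with DESeq2, 11 without a low-count filter and 2 with the likelihood ratio test, and 0 to 1 when a library was left out. For TAU MOL against TAU VEH they were 5 with DESeq2, 29 without the filter, 7 with the likelihood ratio test and 17 with only these groups, and 0 without any 1 library. For TAU MOL against WT VEH they were 8, 35, 27 and 33 under the same settings, 3 with offsets for GC content and length, and 0 to 2 when a library was left out. For TAU VEH against WT VEH_HC they were 24 without the filter, 8 with those offsets, and 2 to 23 when a library was left out. For the difference between genotype effects they were 31 without the filter, 30 with the likelihood ratio test, and 4 to 27 when a library was left out. Leaving out a library gave 27 to 37 for WT VEH against WT VEH_HC, 23 to 30 for TAU VEH against WT VEH and 24 to 34 for TAU MOL against WT VEH_HC. Without the filter, calls over all genes were 125 in the basal comparison and 1590 for TAU MOL against WT VEH. They were 6273 for TAU VEH against WT VEH_HC and 138 for the difference between genotype effects. The likelihood ratio test called 1367 of all genes for TAU MOL against WT VEH. For WT VEH against WT VEH_HC, calls over all genes moved more than those of the 40. They were 614 without WT VEH_HC replicate 1 and 2798 without WT VEH_HC replicate 3, against 1413 with all libraries. The cause of these moves was not tested, beyond fewer libraries where one was left out, and a group left with 1 library was assumed to vary like the others. Of 2476 values for single genes under alternatives, 2173 kept their direction and side of the threshold, 283 lost a call and 20 gained one.

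Replicate numbers did not pair the libraries: correlations of same-numbered deviations ran from -0.16 to 0.24. With the replicate block, calls were 2 in the basal comparison and 28 for TAU MOL against WT VEH, beside 37 and 1321 of all genes. They were 23 for TAU VEH against WT VEH_HC and 6 for the difference between genotype effects, beside 6120 and 8 of all genes. With the replicate block and the GC and length offsets, they were 1 for TAU MOL against TAU VEH and 1 for that difference. Over all genes these 2 fits called 1 and 2.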
